A study of Mus musculus with 9 samples.

Results

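Dividing cells make the machinery that copies DNA and the machinery that separates the copies in 2 waves of transcription, and 44 genes of these waves were followed in cultured mouse limb cells treated with caspase inhibitors. The genes were chosen by symbol. They comprised 21 genes of DNA replication, 20 genes of mitosis and 3 genes of the cyclin D kinase that acts in G1 (Ccnd1, Ccnd2 and Cdk4), out of 52550 genes in the count table. All 44 passed the low-count filter and were among the 13255 genes tested.

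The libraries came from micromass cultures, dense drops of dissociated cells in which limb mesenchyme forms cartilage. The cells came from forelimbs of mouse embryos at embryonic day 12, and the labels call them chondroblasts. In the FMK group (3 libraries) the cultures received Z-VAD-FMK at 100 µM, in the OPH group (3 libraries) they received Q-VD-OPH at 100 µM, and in the DMSO group (3 libraries) they received the vehicle alone, each for 6 days. Both compounds are irreversible inhibitors that block many caspases, the proteases of apoptosis: Z-VAD-FMK is a peptide with a fluoromethyl ketone, and Q-VD-OPH a quinoline-capped peptide with a difluorophenoxy methyl ketone. The cultures came from whole limb tissue, so cells other than cartilage cells could be present, and no mouse strain is given in the sources used here. The labels call the libraries of a group biological replicates.

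Replication genes are transcribed at the passage from G1 to S phase, when cyclin D and cyclin E kinases inactivate RB-family proteins and release E2F factors. Mitosis genes follow in G2, when the MMB complex and FOXM1 act at promoters that carry a CHR element (cell cycle genes homology region) and boxes bound by NF-Y. In cells that leave the cycle both waves are held down by RB and by the DREAM complex. In cartilage, proliferating chondrocytes express both waves and maturing ones stop dividing.

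Libraries held 5659789 to 6867350 counts and 16588 to 17656 detected genes. Each count stands for a tag from the 3′ end of a transcript, so counts divided by library size (CPM, scaled with TMM factors) compare 1 gene between libraries. Of the cartilage markers, 17 were matched, and none was at 0 in all libraries of a group. Their summed level was 1789 to 1912 CPM in FMK libraries and 1657 to 2844 CPM in OPH libraries, against 3480 to 4949 CPM in DMSO libraries. Of the macrophage markers, 16 of 16 were called lower (edgeR, adjusted p under 0.05) in each inhibitor group against DMSO. Of all genes tested, 10.1% were called lower with FMK and 8.11% with OPH. Macrophage markers summed to 36.3 to 51.3 CPM in FMK libraries and 239 to 278 CPM in OPH libraries, against 1461 to 2829 CPM in DMSO libraries. Adipocyte markers summed to 132 to 234 CPM in FMK libraries, with Cidec at 0, to 839 to 3411 CPM in OPH libraries and to 560 to 3079 CPM in DMSO libraries. Skeletal muscle markers summed to 111 to 442 CPM in FMK libraries and 222 to 611 CPM in OPH libraries, with Myf5 and Ckm at 0 in both groups, against 203 to 706 CPM in DMSO libraries. Endothelial markers summed to at most 18.9 CPM in any library. Fibroblast and connective tissue markers summed to 25809 to 27442 CPM in FMK libraries and 19743 to 20160 CPM in OPH libraries, against 25188 to 26767 CPM in DMSO libraries. Against DMSO, 12 of 17 cartilage markers were called lower with FMK and 8 with OPH. The same counts were 6 and 0 of 12 adipocyte markers, and 0 and 0 of 12 muscle markers tested. They were 1 and 4 of 9 fibroblast markers, and 0 and 0 of 3 endothelial markers tested. With FMK, 1 fibroblast and 1 endothelial marker were called higher. A fit with the replicate number as a block called 15 and 14 cartilage and 11 and 1 adipocyte markers lower with FMK and OPH. It called 5 and 2 muscle and 2 and 7 fibroblast markers lower, beside 13.4% and 11.3% of all genes. There 1 adipocyte and 2 muscle markers were higher with OPH, and 2 fibroblast and 1 endothelial marker with FMK. For adipocyte markers with FMK, DESeq2 called 12 lower and limma-voom 2. The part of these differences in the results below was not tested. In bulk cultures, fewer dividing cells and less RNA per dividing cell cannot be told apart.

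Few of the 44 genes passed the test in any comparison when the replicate numbers of the libraries were not used in the fit. A gene is called when its adjusted p is under 0.05 in edgeR's quasi-likelihood test, adjusted over all genes tested by the Benjamini-Hochberg method. With FMK against DMSO, 2 of 44 rose and 4 of 44 fell, which is 4.55% and 9.09% of the members, beside 10.4% of all genes tested called higher and 10.1% called lower. With OPH against DMSO, 1 of 44 rose and 7 of 44 fell (2.27% and 15.9%), beside 8.61% of all genes called higher and 8.11% called lower. With OPH against FMK, 0 of 44 rose and 3 of 44 fell (0% and 6.82%), beside 4.2% of all genes called higher and 4.66% called lower. In that comparison 0 members were higher at an unadjusted p under 0.05 with edgeR, and 0 were called higher with limma-voom or DESeq2. The share of members called lower was above that of all genes with OPH against DMSO. With OPH against FMK it was close to that of all genes and rested on 3 genes (0 to 4 when 1 library was left out). The other shares were below the background. Scaling by library size alone gave 1 higher and 7 lower calls with FMK against DMSO, where it put the all-gene median at -0.11. It gave 0 lower calls with OPH against FMK, where it put the all-gene median at 0.12.

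Libraries with equal replicate numbers deviated together, and a fit with the number as a block gave more calls: 3 higher and 6 lower with FMK against DMSO, 1 higher and 13 lower with OPH against DMSO, and 0 higher and 10 lower with OPH against FMK. With the block, 13.4% of all genes were called higher and 13.4% lower with FMK against DMSO, 11.6% and 11.3% with OPH against DMSO, and 7.78% and 8.36% with OPH against FMK. All 17 calls made without the block were also made with it. Counts moved when single libraries were left out. With FMK against DMSO, the 4 lower calls became 0 without FMK 2, 1 without FMK 1 or without DMSO 3, and 2 without DMSO 1 or without DMSO 2, and the 2 higher calls became 1 without FMK 2 or without DMSO 1. With OPH against DMSO, the 7 lower calls became 2 without OPH 2, 3 without DMSO 3, and 4 without OPH 1 or without DMSO 1, and the 1 higher call became 2 without DMSO 3. With OPH against FMK, the 3 lower calls became 0 without OPH 1 or without OPH 2 and 1 without FMK 2.

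**Figure D1:**
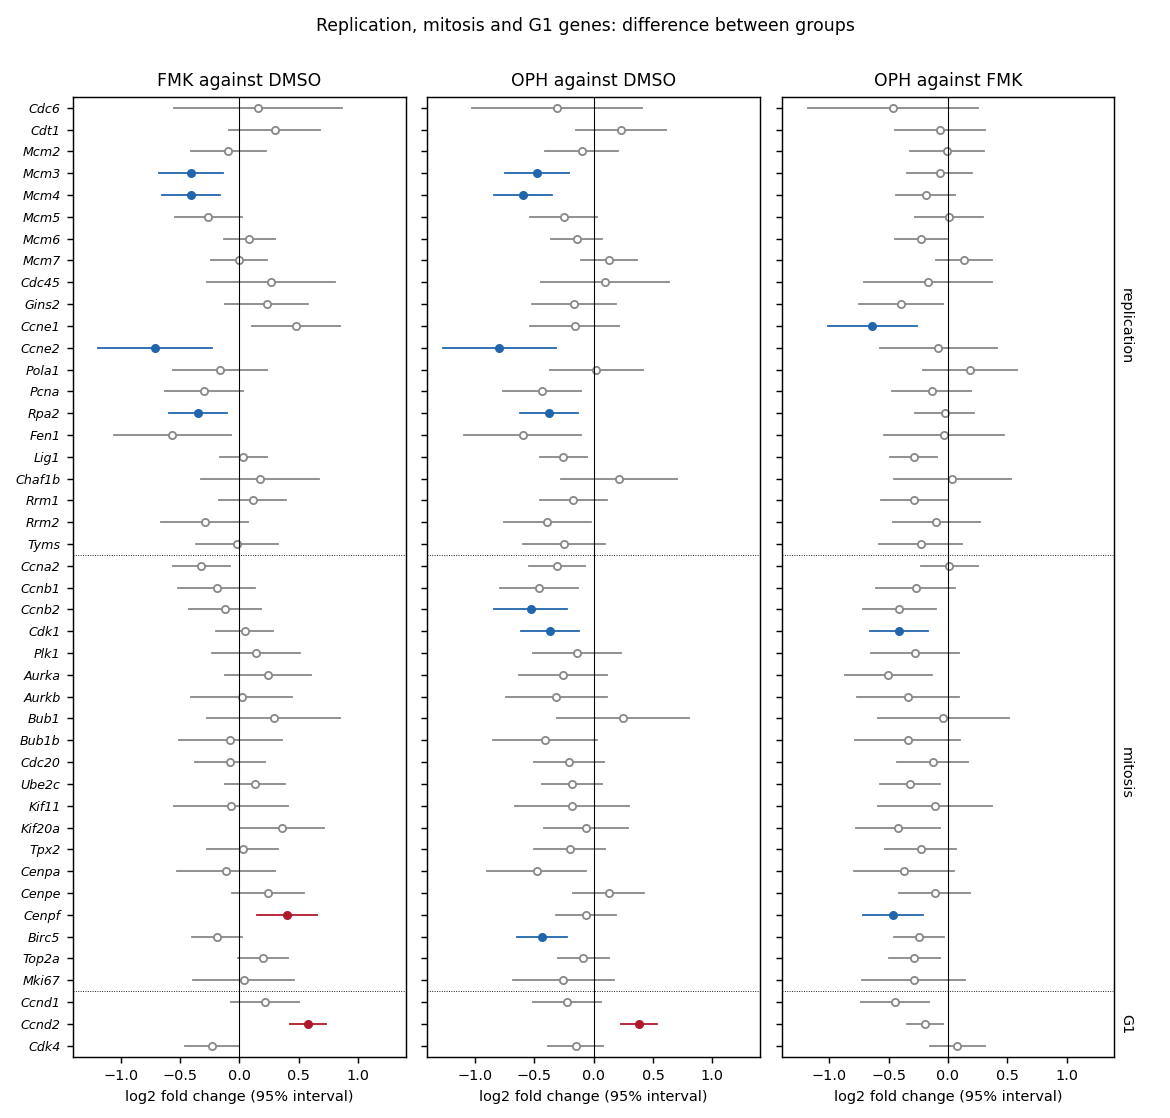
Log2 fold change with its 95% interval for each of the 44 genes (rows, by class) in FMK against DMSO, OPH against DMSO and OPH against FMK. Filled red and blue points passed the test as higher and lower; in the OPH panels 36 and 38 of 44 estimates lie left of 0, whether or not they passed the test.

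By class, and without the replicate block, 4 of 21 replication genes were called lower with each inhibitor, and 3 of 20 mitosis genes with OPH, each against DMSO. With FMK against DMSO, the 4 lower calls were replication genes (0 higher and 4 lower of 21), while 1 mitosis gene was called, as higher (1 higher and 0 lower of 20). The 4 lower calls are 19.05% of the replication class, beside 10.1% of all genes called lower. The 1 mitosis gene is 5% of its class, beside 10.4% of all genes called higher. The median log2 fold change was -0.02 for replication genes and 0.03 for mitosis genes (-0.12 and -0.07 with library size alone), beside -0.01 for all genes tested. With OPH against DMSO, both classes held lower calls: 0 higher and 4 lower of 21 replication genes, and 0 higher and 3 lower of 20 mitosis genes. The lower calls are 19.05% of the replication class and 15% of the mitosis class, beside 8.11% of all genes called lower. Medians were -0.25 and -0.23 (-0.16 and -0.15 without DMSO 3), beside -0.0025 for all genes, and 16 of 21 replication and 18 of 20 mitosis estimates were negative. With OPH against FMK, 1 of 21 replication genes (4.76%) and 2 of 20 mitosis genes (10%) were called lower, beside 4.66% of all genes. The medians were -0.10 and -0.29 (0.01 and -0.18 with library size alone), beside 0.01 for all genes. Without FMK 3 the replication median was -0.03, and without FMK 1, FMK 2 or OPH 3 it was -0.15, -0.17 and -0.17. In this comparison 17 of 21 and 19 of 20 estimates were negative. With FMK against DMSO, leaving out 1 library put the replication median between -0.12 (without FMK 3) and 0.0017 (without DMSO 3) and the mitosis median between -0.025 (without DMSO 2) and 0.15 (without DMSO 3). With the replicate block and FMK against DMSO, 1 replication gene was higher and 5 lower, and 1 mitosis gene was higher and 1 lower. With OPH against DMSO the block called 8 replication and 5 mitosis genes lower, and with OPH against FMK 2 and 6. With OPH it called 0 genes of either class higher. In that fit 13.4%, 11.3% and 8.36% of all genes were lower in these 3 comparisons. The difference between the classes itself was not tested, since the genes were chosen with results of these data known.

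The class level is the mean log2 CPM over a class's genes in 1 library. Replication genes averaged 4.98, 5.01 and 5.21 in the FMK libraries and 4.90, 4.91 and 4.99 in the OPH libraries, against 5.14, 5.07 and 5.25 in the DMSO libraries. The OPH libraries lay below all DMSO libraries, and the FMK libraries overlapped with them. Mitosis genes averaged 5.35, 5.39 and 5.46 in the FMK libraries and 5.13, 4.98 and 5.25 in the OPH libraries, against 5.36, 5.26 and 5.42 in the DMSO libraries. Here the OPH libraries lay below all FMK and DMSO libraries, narrowly for OPH 3 (5.250) under DMSO 2 (5.256), and FMK and DMSO overlapped. With library size alone OPH 3 (5.284) reached above FMK 1 (5.277). Within replicate numbers 1, 2 and 3, the replication level with FMK minus that with DMSO was -0.16, -0.06 and -0.04, so it was lower in all 3 numbers although the groups overlapped. Replication with OPH minus FMK was -0.08, -0.10 and -0.22, and with library size alone 0.03, 0.02 and -0.14, so its sign turned in numbers 1 and 2. Mitosis with OPH minus FMK was -0.22, -0.41 and -0.21, and -0.10, -0.30 and -0.12 with library size alone. Mitosis minus replication level was 0.37, 0.38 and 0.25 in the FMK libraries and 0.23, 0.07 and 0.26 in the OPH libraries, against 0.22, 0.19 and 0.17 in the DMSO libraries. All 3 FMK libraries lay above all 3 DMSO libraries in this balance (0.33 ± 0.07 with FMK and 0.19 ± 0.02 with DMSO, SD, n = 3 each), whereas the OPH libraries (0.19 ± 0.11) spread over both sides of the DMSO ones. The balance is one of means over the chosen members. The median log2 fold changes with FMK against DMSO lay closer together, at -0.02 and 0.03. For 44 further replication and 50 further mitosis genes they were -0.03 and -0.02.

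**Figure D2:**
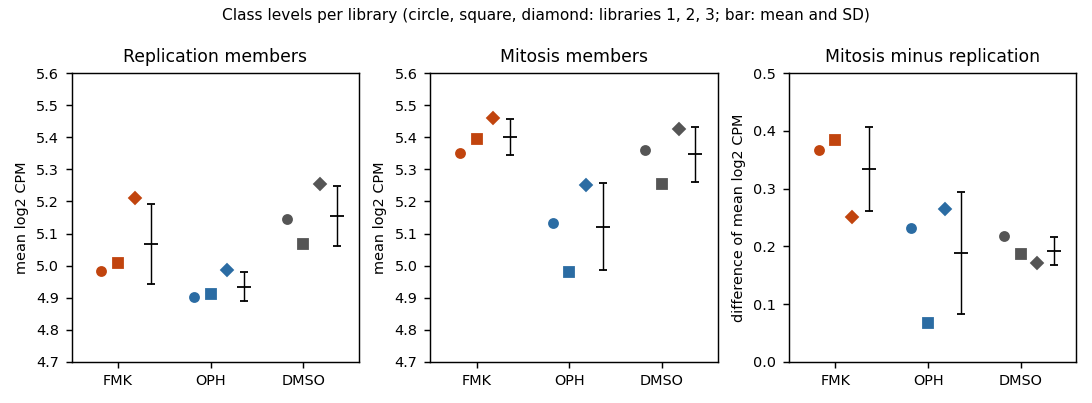
Mean log2 CPM of the 21 replication and 20 mitosis genes and the difference between them, for each FMK, OPH and DMSO library (axes of the first panels do not start at 0). With TMM scaling the 3 OPH libraries lie lowest in the mitosis panel (with library size alone, OPH 3 passes FMK 1), and the 3 FMK libraries lie above the 3 DMSO libraries in the difference.

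The promoters of the classes carried different motifs, which the choice of genes by symbol did not use. RefSeq promoter windows (GRCm38.p6, 250 bases before to 50 after the start) were matched for 35 of 44 genes. Both strands were searched for E2F-like sites (TTTGGCGC, TTTCCCGC, TTTCGCGC or TTTGCCGC), for the CHR (TTTGAA or TTTAAA) and for the NF-Y box (CCAAT). Matches of different motifs shared bases in 1 member, Mcm7. E2F-like matches stood in 8 of 18 replication genes and 1 of 16 mitosis genes, beside 2.61% of all 27025 genes with a window. The CHR stood in 15 of 16 mitosis genes and 6 of 18 replication genes, beside 30.6% of all genes, and its TTTGAA form alone in 12 of 16 and 3 of 18, beside 20.2%. The NF-Y box stood in 15 of 16 mitosis genes and 11 of 18 replication genes, beside 41.1%. Within 50 bases of the start, a range chosen after the positions were seen, 13 of 16 mitosis windows held a CHR, against 3 of 22 replication windows and 8.28% of all windows. A match is a string of letters, and binding was not measured.

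**Figure D3:**
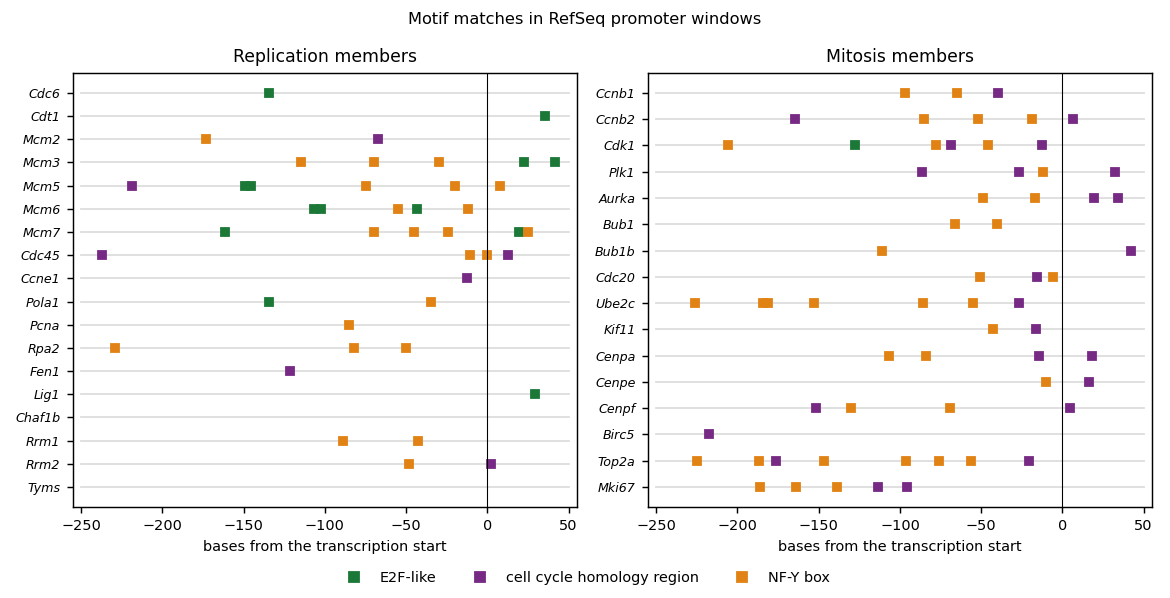
Position of each motif match in bases from the transcription start (18 replication and 16 mitosis genes, with all windows of a gene on its row). Cell cycle homology region matches gather around the start in mitosis genes, and E2F-like matches lie mostly in replication genes.

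The promoters of 4 genes called in a comparison are printed, with motif matches in capitals. The other called genes with a window each lack a motif more frequent in their class. Rpa2 has 0 E2F-like matches and 3 NF-Y boxes, and Ccne1 has 0 E2F-like matches and 1 CHR. Birc5 has 0 NF-Y boxes, and its CHR lies at -220 bases from the start. Mcm3, a helicase subunit, fell with both inhibitors; its window is on the minus strand at chr1:20820263-20820562, with 2 E2F-like matches after the start and 3 NF-Y boxes before it. Ccnb2 (chr9:70421505-70421804, minus strand) and Cdk1 (chr10:69352863-69353162, minus strand), a mitotic cyclin and its kinase, both fell with OPH. Ccnb2 has 3 NF-Y boxes at steps of 33 bases ahead of a CHR 4 bases past the start. Cdk1 has a CHR 15 bases before the start, 2 of its NF-Y boxes 32 bases apart, and the E2F-like match of the mitosis class. Cenpf, a kinetochore gene that rose with FMK, is at chr1:189688037-189688336 on the minus strand, and has a CHR 2 bases past the start.
Mcm3: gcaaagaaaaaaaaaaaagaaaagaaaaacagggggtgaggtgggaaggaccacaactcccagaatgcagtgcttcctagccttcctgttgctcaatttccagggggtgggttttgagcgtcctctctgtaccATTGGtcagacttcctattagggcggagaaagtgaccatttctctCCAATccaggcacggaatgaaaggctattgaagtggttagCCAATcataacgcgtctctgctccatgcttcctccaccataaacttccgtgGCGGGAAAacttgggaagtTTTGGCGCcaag
Ccnb2: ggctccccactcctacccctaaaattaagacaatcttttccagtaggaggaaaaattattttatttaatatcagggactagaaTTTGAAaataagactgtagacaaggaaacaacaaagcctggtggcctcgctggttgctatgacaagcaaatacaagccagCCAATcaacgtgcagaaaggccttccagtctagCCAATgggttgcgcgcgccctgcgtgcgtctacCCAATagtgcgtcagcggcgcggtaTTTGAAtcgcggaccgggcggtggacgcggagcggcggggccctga
Cdk1: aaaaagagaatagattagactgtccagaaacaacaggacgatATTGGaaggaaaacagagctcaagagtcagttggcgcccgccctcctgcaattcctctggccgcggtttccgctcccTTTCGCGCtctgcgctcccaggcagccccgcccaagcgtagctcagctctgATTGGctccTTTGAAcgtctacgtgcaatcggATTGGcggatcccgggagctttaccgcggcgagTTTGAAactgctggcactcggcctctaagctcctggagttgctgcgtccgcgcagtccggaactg
Cenpf: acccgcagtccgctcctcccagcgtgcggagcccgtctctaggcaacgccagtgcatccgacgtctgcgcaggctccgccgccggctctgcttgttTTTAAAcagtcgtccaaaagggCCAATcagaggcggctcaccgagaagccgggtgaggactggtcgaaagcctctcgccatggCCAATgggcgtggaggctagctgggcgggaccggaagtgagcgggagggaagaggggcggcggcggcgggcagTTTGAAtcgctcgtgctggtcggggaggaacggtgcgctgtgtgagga

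Among replication genes, 2 subunits of the MCM helicase fell with both inhibitors (gene positions are from GENCODE M21, GRCm38). The MCM proteins form the ring that is loaded at origins and unwinds DNA. Mcm3 (ENSMUSG00000041859, chr1:20802968-20820312, minus strand) measured 53.7, 51.0 and 71.5 CPM in the FMK libraries and 54.0, 54.2 and 59.7 CPM in the OPH libraries, against 68.9, 82.6 and 81.7 CPM in the DMSO libraries. The OPH libraries lay below all DMSO libraries, while FMK 3 exceeded DMSO 1. The log2 fold change was -0.41 ± 0.13 (SE) with FMK (adjusted p = 0.0325) and -0.47 ± 0.13 with OPH (adjusted p = 0.0159). The FMK call was lost without FMK 1 (adjusted p = 0.134), FMK 2 (0.171), DMSO 2 (0.116) or DMSO 3 (0.0948) and in a fit of the 2 groups alone (0.0573), over a range of 0.00336 to 0.171 in 18 alternatives. The OPH call was lost without OPH 1 (0.0628), OPH 2 (0.067), DMSO 2 (0.0666) or DMSO 3 (0.0552), over a range of 0.00165 to 0.067.

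Mcm4 (ENSMUSG00000022673, chr16:15623897-15637400, minus strand) measured 53.6, 52.9 and 49.8 CPM in the FMK libraries and 40.9, 46.1 and 50.3 CPM in the OPH libraries, against 71.9, 61.6 and 73.7 CPM in the DMSO libraries. All 6 inhibitor libraries lay below all 3 DMSO libraries. It fell by 0.41 ± 0.12 (SE) on the log2 scale with FMK (adjusted p = 0.0181) and by 0.59 ± 0.12 with OPH (adjusted p = 0.00167). The OPH call held in 18 of 18 alternatives. The FMK call was lost without FMK 2 (adjusted p = 0.0537), FMK 3 (0.0544), DMSO 1 (0.0714) or DMSO 3 (0.0707) and with the libraries numbered 1 and 2 alone (0.113), over a range of 0.00369 to 0.113.

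The other origin genes were not called. Mcm6 (ENSMUSG00000026355), of the same ring, measured 107, 131 and 111 CPM in the FMK libraries and 95.7, 102 and 100 CPM in the OPH libraries, against 107, 99.4 and 122 CPM in the DMSO libraries. Mcm7 (ENSMUSG00000029730) measured 68.6, 77.7 and 91.0 CPM in the FMK libraries and 82.99, 95.98 and 80.9 CPM in the OPH libraries, against 78.7, 77.6 and 81.7 CPM in the DMSO libraries. Both overlapped between all groups but for OPH and FMK in Mcm6, and their intervals with OPH against DMSO were -0.36 to 0.07 and -0.11 to 0.36 on the log2 scale. Mcm2, Mcm5, Cdc6 and Cdt1, the last a loading factor beside Cdc6, had estimates of -0.26 to 0.30 with FMK and -0.31 to 0.23 with OPH against DMSO. Cdc45 and Gins2, which activate the helicase, had 0.27 and 0.23 with FMK and 0.10 and -0.16 with OPH, also not called. Genes on the other strand lie over the 3′ ends of Mcm7 (Cops6) and Gins2 (Gm20388 and Gse1).

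Of the E cyclins, which with CDK2 drive entry into S phase, Ccne2 fell with both inhibitors against DMSO and Ccne1 did not pass the test with either. Ccne2 (ENSMUSG00000028212, chr4:11191351-11204779, plus strand) measured 11.9, 13.5 and 14.0 CPM in the FMK libraries and 15.1, 8.67 and 13.4 CPM in the OPH libraries, against 27.7, 18.5 and 18.3 CPM in the DMSO libraries. All inhibitor libraries lay below all DMSO libraries, and DMSO 1 stood above the other two. It fell by 0.71 ± 0.23 (SE) with FMK (adjusted p = 0.0342) and by 0.79 ± 0.23 with OPH (adjusted p = 0.0221). Without DMSO 1 the estimates were -0.49 (adjusted p = 0.207) and -0.57 (0.149). The FMK call was further lost without FMK 1 (0.113), FMK 2 (0.0854) or FMK 3 (0.0528) and with limma-voom (0.0586), and the OPH call without OPH 2 (0.117), over ranges of 0.0119 to 0.207 and 0.00426 to 0.149. The gene Ints8 lies over the 3′ end of Ccne2 on the other strand, and the use of strand in counting is not given in the sources used here.

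Ccne1 (ENSMUSG00000002068, chr7:38097984-38107534, minus strand) measured 29.9, 30.2 and 42.5 CPM in the FMK libraries and 17.8, 23.5 and 24.5 CPM in the OPH libraries, against 26.4, 20.8 and 26.2 CPM in the DMSO libraries. All FMK libraries lay above all others. The estimate with FMK against DMSO was 0.48 ± 0.18 (adjusted p = 0.0648, and 0.0233 with the replicate block), and it was -0.64 ± 0.18 with OPH against FMK (adjusted p = 0.0305). The OPH against FMK call was lost without FMK 3 (adjusted p = 0.141), OPH 1 (0.136) or OPH 2 (0.0769), with the libraries numbered 1 and 2 alone (0.0973), with library size alone (0.0624) and with limma-voom (0.0531), over a range of 0.00452 to 0.141. OPH against DMSO gave -0.16 (interval -0.54 to 0.22).

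Of the DNA synthesis genes, Rpa2 was called with both inhibitors. Rpa2 (ENSMUSG00000028884, chr4:132768332-132778752, plus strand), a subunit of the complex that coats single-stranded DNA, measured 47.7, 56.9 and 63.5 CPM in the FMK libraries and 54.5, 52.8 and 57.4 CPM in the OPH libraries, against 69.9, 67.7 and 76.2 CPM in the DMSO libraries. All 6 inhibitor libraries lay below the DMSO libraries. It fell by 0.35 ± 0.12 (SE) with FMK (adjusted p = 0.0420) and by 0.38 ± 0.12 with OPH (adjusted p = 0.0327). Both calls lay near the threshold. The FMK call was lost without any of 8 libraries (FMK 1, FMK 2, OPH 1, OPH 2, OPH 3, DMSO 1, DMSO 2 or DMSO 3, with adjusted p of 0.203, 0.101, 0.0554, 0.0520, 0.0517, 0.0849, 0.0620 and 0.139 in that order), with DESeq2 (0.0501) and in a fit of the 2 groups alone (0.0721), and ranged from 0.00990 to 0.203. The OPH call was lost without OPH 1 (0.0902), OPH 2 (0.116), OPH 3 (0.0564), DMSO 1 (0.0711), DMSO 2 (0.05002) or DMSO 3 (0.117) and with the libraries numbered 1 and 2 alone (0.0824), and ranged from 0.00994 to 0.117.

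Lig1 (ENSMUSG00000056394), the ligase that joins Okazaki fragments, measured 101, 109 and 98.8 CPM in the FMK libraries and 77.9, 90.7 and 84.5 CPM in the OPH libraries, against 107, 99.7 and 95.8 CPM in the DMSO libraries. The OPH libraries lay below all others. Its estimates with OPH were -0.26 ± 0.09 against DMSO (adjusted p = 0.0765, and 0.0420 with the block) and -0.29 ± 0.10 against FMK (adjusted p = 0.0674, and 0.0303 with the block). Further genes passed the test with the block alone. These were Fen1, the flap nuclease, with FMK (-0.56, adjusted p = 0.0128) and with OPH (-0.60, 0.00874), and, with OPH, Pcna, the sliding clamp (-0.43, 0.0282), and Rrm2, of ribonucleotide reductase (-0.37, 0.0474), each against DMSO. The last 3 had adjusted p of 0.0959, 0.0668 and 0.144 without the block. Pola1, Chaf1b, Rrm1 and Tyms were called in no comparison by either fit. Reads of Pcna and Tyms may be shared with annotated pseudogenes, and Gm10143 lies over the 3′ end of Fen1 on the other strand.

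**Figure D4:**
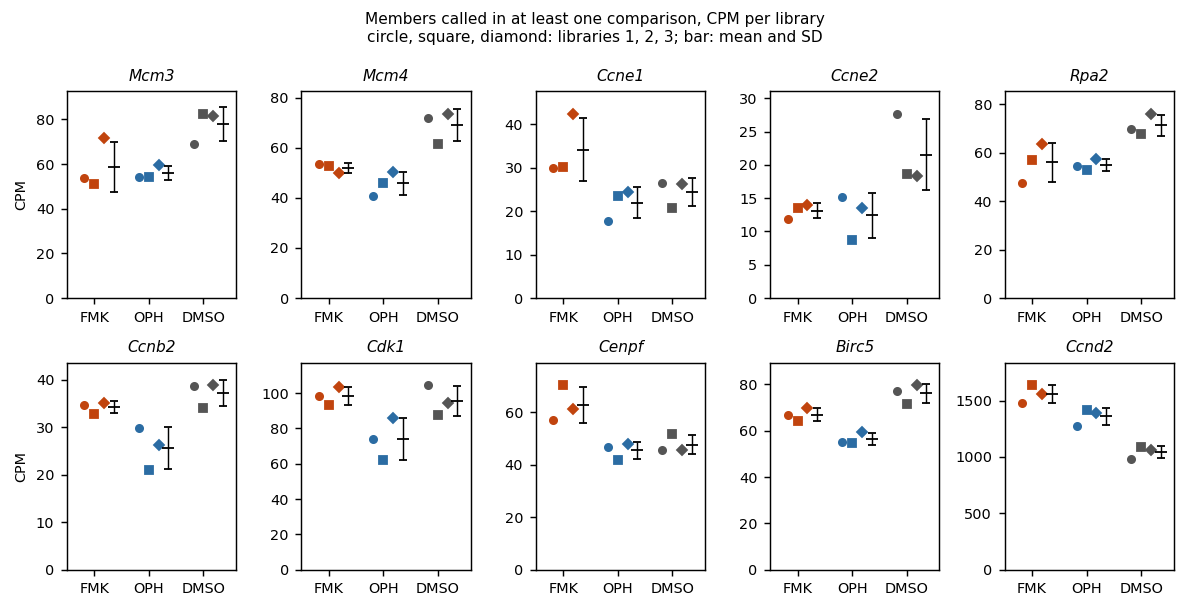
CPM of the 10 genes called in at least 1 comparison, in each FMK, OPH and DMSO library, with the mean and SD beside each group (axes start at 0). For Mcm4, Ccne2 and Rpa2 all inhibitor libraries lie below the DMSO libraries, and for Ccnd2 all lie above.

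Among mitosis genes, Cdk1 fell with OPH against both DMSO and FMK, and Ccnb2 fell with OPH against DMSO. Cdk1 (ENSMUSG00000019942, chr10:69335146-69352938, minus strand), the kinase that starts mitosis, measured 98.3, 93.3 and 103 CPM in the FMK libraries and 73.9, 62.1 and 85.8 CPM in the OPH libraries, against 104, 87.4 and 94.2 CPM in the DMSO libraries. The OPH libraries lay below all others, and FMK and DMSO overlapped. Cdk1 fell by 0.37 ± 0.11 (SE) with OPH against DMSO (adjusted p = 0.0349) and by 0.41 ± 0.12 with OPH against FMK (adjusted p = 0.0312). The estimate with FMK against DMSO was 0.04 (interval -0.20 to 0.28). The call against DMSO was lost without OPH 1 (0.0888), OPH 2 (0.188), DMSO 1 (0.155) or DMSO 3 (0.0626), over a range of adjusted p of 0.00494 to 0.188. The call against FMK was lost without FMK 1 (0.0836), FMK 2 (0.0568), FMK 3 (0.0834), OPH 1 (0.088) or OPH 2 (0.168) and with library size alone (0.0996), over a range of 0.00269 to 0.168.

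Ccnb2 (ENSMUSG00000032218, chr9:70407692-70421547, minus strand), a B cyclin that binds CDK1, measured 34.6, 32.7 and 35.1 CPM in the FMK libraries and 29.8, 21.04 and 26.3 CPM in the OPH libraries, against 38.6, 34.0 and 38.8 CPM in the DMSO libraries. Again the OPH libraries lay below all others. It fell by 0.53 ± 0.15 (SE) with OPH against DMSO (adjusted p = 0.0166), and the estimate against FMK was -0.41 ± 0.15 (adjusted p = 0.0924, and 0.0362 with the block). The call was lost without OPH 2 (0.101), DMSO 1 (0.0611) or DMSO 3 (0.0552) and with the libraries numbered 1 and 2 alone (0.0727), over a range of 0.00403 to 0.101. Ccnb1 gave -0.46 with OPH against DMSO (adjusted p = 0.0502, and 0.0173 with the block). Ccna2, the A cyclin of S phase and G2, gave -0.32 with FMK against DMSO (adjusted p = 0.0539, and 0.0428 with the block) and -0.31 with OPH against DMSO (0.0691). Ccnb1 and Ccnb2 have annotated pseudogenes that may share their reads, and Exosc9 lies over the 3′ end of Ccna2 on the other strand.

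At the centromere, Birc5 was called lower with OPH and Cenpf higher with FMK, each against DMSO. Birc5 (ENSMUSG00000017716, chr11:117849251-117855743, plus strand), survivin, of the chromosomal passenger complex and a member of the family of apoptosis inhibitors, measured 66.8, 64.2 and 69.7 CPM in the FMK libraries and 55.04, 54.9 and 59.3 CPM in the OPH libraries, against 77.3, 71.6 and 79.6 CPM in the DMSO libraries. The groups did not overlap: DMSO was highest and OPH lowest. Birc5 fell by 0.43 ± 0.10 (SE) with OPH against DMSO (adjusted p = 0.00573), a call that held in 18 of 18 alternatives. The estimates were -0.19 ± 0.10 with FMK against DMSO (adjusted p = 0.211) and -0.25 ± 0.10 with OPH against FMK (adjusted p = 0.146).

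Cenpf (ENSMUSG00000026605, chr1:189640606-189688086, minus strand), a large kinetochore protein, measured 57.0, 70.2 and 61.1 CPM in the FMK libraries and 46.8, 41.8 and 47.9 CPM in the OPH libraries, against 45.4, 51.8 and 45.6 CPM in the DMSO libraries. All FMK libraries lay above all others, and OPH and DMSO overlapped. It rose by 0.40 ± 0.12 (SE) with FMK against DMSO (adjusted p = 0.0235) and fell by 0.46 ± 0.12 with OPH against FMK (adjusted p = 0.0211). The FMK call was lost without FMK 2 (0.121), DMSO 1 (0.0836) or DMSO 3 (0.0646), with the libraries numbered 1 and 2 alone (0.0749) and with library size alone (0.0853), over a range of 0.0103 to 0.121. The OPH against FMK call was lost without FMK 2 (0.105), OPH 1 (0.0506) or OPH 2 (0.107) and with library size alone (0.0632), over a range of 0.00599 to 0.107. Cenpa, the centromeric histone, gave -0.48 with OPH against DMSO (adjusted p = 0.115, and 0.0428 with the block), and Cenpe was called in no comparison.

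Top2a and Ube2c passed the test with the block alone, as lower with OPH against FMK. Top2a (ENSMUSG00000020914), which untangles sister DNA, measured 150, 158 and 170 CPM in the FMK libraries and 125, 120 and 147 CPM in the OPH libraries, against 151, 123 and 142 CPM in the DMSO libraries. OPH lay below FMK in every library and overlapped with DMSO. Ube2c (ENSMUSG00000001403), the ubiquitin-conjugating enzyme of the anaphase-promoting complex, measured 74.8, 92.9 and 85.7 CPM in the FMK libraries and 74.2, 63.4 and 65.5 CPM in the OPH libraries, against 85.7, 65.2 and 79.9 CPM in the DMSO libraries. With OPH against FMK the estimates were -0.29 ± 0.10 for Top2a (adjusted p = 0.0931, and 0.0202 with the block) and -0.32 ± 0.12 for Ube2c (adjusted p = 0.110, and 0.0454 with the block). Aurka, the spindle pole kinase, gave -0.50 ± 0.17 in that comparison (adjusted p = 0.0816, and 0.0287 with the block). Plk1, Aurkb, Bub1, Bub1b, Cdc20, Kif11, Kif20a, Tpx2 and Mki67 were called in no comparison by either fit. Their estimates ran from -0.08 to 0.36 with FMK against DMSO, from -0.41 to 0.25 with OPH against DMSO and from -0.42 to -0.04 with OPH against FMK. Genes on the other strand lie over the 3′ ends of Ube2c (Tnnc2), Cdc20 (Elovl1) and Kif20a (Cdc23). Tnnc2, a troponin gene of skeletal muscle, measured 4.08, 7.91 and 15.4 CPM in the FMK libraries and 9.13, 9.95 and 29.6 CPM in the OPH libraries, against 15.2, 19.5 and 60.8 CPM in the DMSO libraries, and its part in the count of Ube2c was not tested.

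In G1, cyclin D2 rose with both inhibitors. Ccnd2 (ENSMUSG00000000184, chr6:127125162-127152193, minus strand), a partner of CDK4 and CDK6, measured 1475, 1635 and 1559 CPM in the FMK libraries and 1274, 1412 and 1392 CPM in the OPH libraries, against 981, 1084 and 1061 CPM in the DMSO libraries. All inhibitor libraries lay above all DMSO libraries. It was 1.49 times as high with FMK (log2 fold change 0.58 ± 0.07 (SE), adjusted p = 1.01e-05) and 1.30 times as high with OPH (0.38 ± 0.07, adjusted p = 0.00105), and both calls held in 18 of 18 alternatives. OPH against FMK gave -0.20 ± 0.07 (adjusted p = 0.0996, and 0.0331 with the block). The annotated gene Gm43126 lies over the 3′ end of Ccnd2 on the other strand.

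Ccnd1 (ENSMUSG00000070348), which encodes cyclin D1, measured 106, 138 and 94.9 CPM in the FMK libraries and 82.6, 87.7 and 78.6 CPM in the OPH libraries, against 91.5, 114 and 86.3 CPM in the DMSO libraries. OPH lay below FMK in every library. The estimate with OPH against FMK was -0.45 ± 0.13 (adjusted p = 0.0512, and 0.00140 with the block), and neither comparison with DMSO was called. Cdk4 (ENSMUSG00000006728), their kinase, measured 104, 93.0 and 111 CPM in the FMK libraries and 108, 107 and 110 CPM in the OPH libraries, against 103, 115 and 142 CPM in the DMSO libraries, with overlap between all groups. Genes on the other strand lie over the 3′ ends of Ccnd1 (LTO1) and Cdk4 (Tspan31).

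Between the compounds, given at the same concentration and time, Ccne1, Cdk1 and Cenpf were called, each lower with OPH. All 3 calls were lost with library size alone, without OPH 1 and without OPH 2. The replicate block made 10 lower calls, adding Lig1, Ccnb2, Aurka, Ube2c, Top2a, Ccnd1 and Ccnd2. For the genes called with both compounds against DMSO, the difference between compounds was -0.07 (95% interval -0.34 to 0.21) for Mcm3, -0.19 (-0.44 to 0.06) for Mcm4, -0.08 (-0.58 to 0.41) for Ccne2, -0.03 (-0.28 to 0.22) for Rpa2 and -0.20 (-0.34 to -0.05) for Ccnd2 on the log2 scale. Of these 5 intervals that of Ccnd2 leaves out 0, and that of Mcm4 reaches a difference as large as its own fall with FMK. In the authors' deposited table, with signs turned to the inhibitor over DMSO or OPH over FMK, all 44 genes had the same sign as here in each comparison. That table called 2 higher and 3 lower with FMK against DMSO (all but Rpa2 of the 6 here), 1 higher and 7 lower with OPH against DMSO (the same 8 genes) and 0 higher and 4 lower with OPH against FMK (the 3 here and Ccnd1).

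Further genes of both programmes were counted from wider lists. Of 44 further replication genes, 0 were called with FMK against DMSO by edgeR, limma-voom or DESeq2, 3 were higher and 2 lower at an unadjusted p under 0.05 in edgeR, and 1 rose with the block. Of all genes tested, 10.4% were called higher and 10.1% lower there. With OPH against DMSO, 2 rose and 6 fell, which is 4.55% and 13.6% of the list, beside 8.61% and 8.11% of all genes. There limma-voom gave 2 higher and 5 lower, and DESeq2 gave 1 higher and 6 lower. Dck, a deoxynucleoside kinase, fell by 1.00 on the log2 scale (adjusted p = 0.00471), Uhrf1, which maintains DNA methylation, by 0.94 (0.00832), Gmnn, the geminin gene that blocks relicensing, by 0.98 (0.0162) and Timeless, of the fork protection complex, by 0.77 (0.0106). Orc4, of the origin recognition complex, rose by 0.54 (adjusted p = 0.00677). With OPH against FMK, 0 rose and 2 fell, Dck and Timeless, which is 0% and 4.55%, beside 4.2% and 4.66% of all genes, and 1 rose and 3 fell with the block. In that comparison limma-voom called 0 genes of the list lower, and DESeq2 called 2. The medians of this list were -0.03, -0.12 and -0.12 in the order FMK against DMSO, OPH against DMSO and OPH against FMK.

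Of 50 further mitosis genes, 1 rose with FMK against DMSO (2 rose and 1 fell with the block), 1 rose and 8 fell with OPH against DMSO, and 0 rose and 3 fell with OPH against FMK. The shares called higher and lower were 2% and 0%, 2% and 16%, and 0% and 6% of the list in that order, beside 10.4% and 10.1%, 8.61% and 8.11%, and 4.2% and 4.66% of all genes. The medians were -0.02, -0.23 and -0.26 in the same order. Melk, a kinase of dividing cells, measured 20.4, 34.4 and 26.3 CPM in the FMK libraries and 25.5, 24.5 and 13.3 CPM in the OPH libraries, against 11.8, 13.2 and 11.9 CPM in the DMSO libraries. It rose by 1.14 ± 0.24 (SE) with FMK (adjusted p = 0.00328) and by 0.78 ± 0.24 with OPH (adjusted p = 0.0391). All inhibitor libraries lay above all DMSO libraries, narrowly for OPH 3 (13.29 CPM) over DMSO 2 (13.23 CPM). With OPH against DMSO, limma-voom called 0 genes of this list higher, and DESeq2 called 1. Those that fell with OPH against DMSO included Lmnb1, a nuclear lamin (-0.46, adjusted p = 0.0113), Cdca8, which is borealin of the passenger complex with survivin (-0.52, 0.0122), Tubb4b, a tubulin (-0.35, 0.0178), Kif23, a motor of cytokinesis (-0.66, 0.0245), and Ndc80, which binds spindle microtubules (-0.60, 0.0285). Cks2, Ncapg and Prc1 fell with OPH against FMK, with log2 fold changes of -1.502, -0.67 and -0.44. Cks2 had a low level, with 4.74, 5.12 and 4.41 CPM in the FMK libraries and 1.85, 1.56 and 1.58 CPM in the OPH libraries. It measured 4.04, 3.06 and 4.51 CPM in the DMSO libraries.

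Among 15 CDK inhibitors and other G1 genes, 14 were tested, and most calls were higher than DMSO. With FMK against DMSO 6 rose and 2 fell, with OPH against DMSO 4 rose and 1 fell, and with OPH against FMK 1 rose and 4 fell. As shares of the genes tested in the list these were 42.9% and 14.3%, 28.6% and 7.14%, and 7.14% and 28.6%, beside the same shares of all genes as above. The replicate block and DESeq2 gave these counts too, and limma-voom gave 5 higher and 1 lower, 4 and 1, and 0 and 3. Cdkn1a, which encodes the inhibitor p21, measured 217, 258 and 337 CPM in the FMK libraries and 294, 285 and 355 CPM in the OPH libraries, against 117, 112 and 156 CPM in the DMSO libraries. It rose by 1.07 ± 0.19 (SE) with FMK (adjusted p = 0.00387) and by 1.28 ± 0.19 with OPH (adjusted p = 0.001995), and no inhibitor library overlapped with DMSO.

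Of the Ink4 inhibitors of CDK4 and CDK6, Cdkn2b rose and Cdkn2c fell with both compounds. Cdkn2b measured 83.5, 73.95 and 96.4 CPM in the FMK libraries and 61.3, 61.6 and 68.0 CPM in the OPH libraries, against 46.2, 38.2 and 49.7 CPM in the DMSO libraries, with no overlap between groups. It rose by 0.92 ± 0.13 (SE) with FMK (adjusted p = 3.32e-05) and by 0.51 ± 0.13 with OPH (adjusted p = 0.00915), and fell by 0.41 ± 0.12 with OPH against FMK (adjusted p = 0.0449). Cdkn2a measured 156, 122 and 165 CPM in the FMK libraries and 85.4, 92.4 and 94.8 CPM in the OPH libraries, against 79.2, 82.9 and 85.8 CPM in the DMSO libraries. It rose with FMK against DMSO (0.84 ± 0.11, adjusted p = 1.69e-05) and was lower with OPH against FMK (-0.70 ± 0.11, adjusted p = 0.000549). This locus also encodes p19Arf from the same 3′ end, which these tags do not tell from p16Ink4a. Cdkn2c measured 11.8, 10.9 and 13.1 CPM in the FMK libraries and 16.8, 12.2 and 13.8 CPM in the OPH libraries, against 29.9, 23.9 and 22.2 CPM in the DMSO libraries. It fell by 1.09 ± 0.19 with FMK (adjusted p = 0.000478) and by 0.83 ± 0.19 with OPH (adjusted p = 0.00532).

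Cdk6 and Ccnd3, a kinase and a D cyclin of G1, rose with FMK against DMSO (0.52 and 0.41, adjusted p = 0.00195 for both) and were lower with OPH against FMK (-0.53 and -0.40, adjusted p = 0.00493 and 0.00701). Cdkn1b, which encodes p27, was higher with OPH against FMK by 0.36 (adjusted p = 0.0435). It measured 139, 137 and 151 CPM in the FMK libraries and 155, 198 and 195 CPM in the OPH libraries, against 157, 195 and 193 CPM in the DMSO libraries. The FMK libraries thus lay below all others, and OPH and DMSO overlapped. Myc rose with OPH against DMSO by 1.30 (adjusted p = 0.00273) and with FMK by 0.79 (adjusted p = 0.0443). In the FMK group Myc measured 11.6 CPM in FMK 1, within the range of the DMSO libraries (9.19 to 14.5 CPM), and 24.5 and 25.9 CPM in FMK 2 and FMK 3. Beside the replicate block and the other tools, the list genes were not run under other settings.

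**Figure D5:**
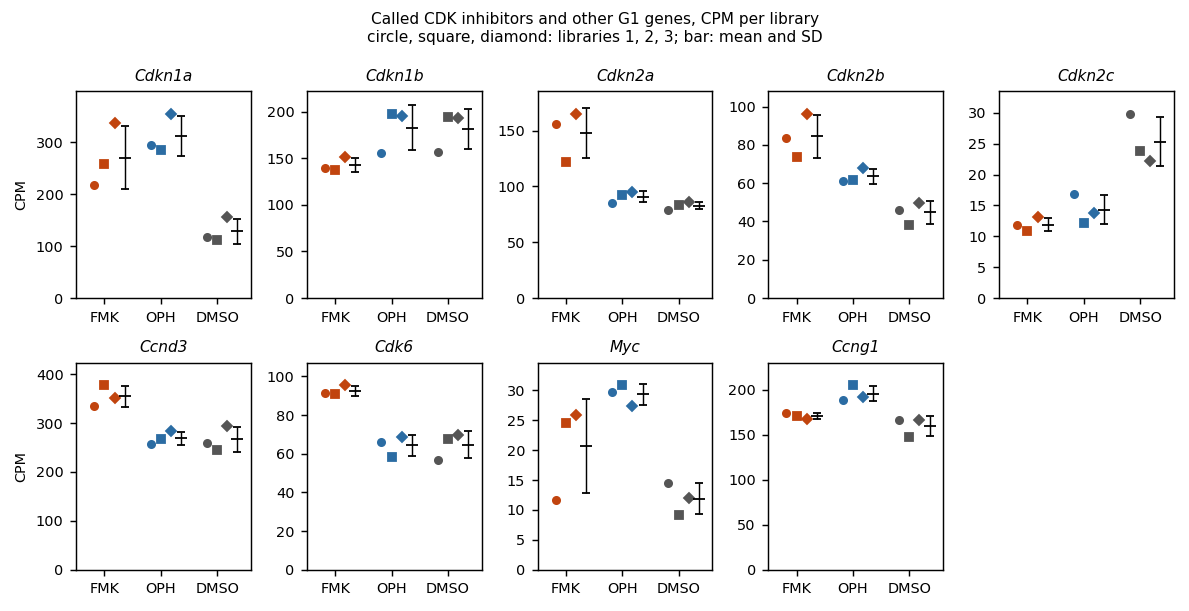
CPM of the 9 CDK inhibitors and other G1 genes called in at least 1 comparison, in each FMK, OPH and DMSO library, with the mean and SD beside each group (axes start at 0). Cdkn1a, Cdkn2b and Cdkn2c separate both inhibitors from DMSO, while Cdkn2a, Ccnd3 and Cdk6 (FMK higher) and Cdkn1b (FMK lower) separate FMK from OPH and DMSO.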

How the data were processed

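RNA 3′ ends were sequenced in 9 libraries, 3 each of FMK, OPH and DMSO. The table deposited by the authors gives unnormalized whole-number counts for each gene, with 99 spike-in rows of 1 count in all that were left out. Per the file headers, it also held the authors' DESeq2 log2 fold change and adjusted p-value per comparison. Per the submitters' processing notes, cutadapt, STAR and DESeq2 were used with mm10; the counter, its annotation and its strand setting were not given in the sources used here. Library columns were matched to sample titles by name (7 of 9 add a letter).

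Counts were tested with edgeR 4.0.16 (R 4.3.3): TMM scaling, filterByExpr with a minimum count of 10, 1 robust quasi-likelihood fit of all 9 libraries, two-sided, with Benjamini-Hochberg adjustment over 13255 genes and a threshold of 0.05. Intervals are 95% intervals of the fit. Alternatives were RLE factors, library size alone, no filter, a minimum count of 30, DESeq2 1.42.0, limma-voom 3.58.1, the 2 groups alone, a replicate block, each library left out in turn, and the libraries numbered 1 and 2 alone. The method was tested on simulated data.

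The sample titles give groups the same numbers, and the labels do not say what a number shares. Deviations of same-numbered libraries from their group means correlated at 0.10 to 0.34 in all 9 pairs, and 18 of 18 best matches carried the same number, so the block was read as a pairing. Libraries of 1 group differed by 5.47 to 13.5 times the sampling variance (chi-square per degree of freedom), so none was a copy.

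The 44 members and all lists were chosen with earlier results of these data known. Named genes are those called in any comparison, the 3 with the highest mean CPM in each class, and at most 5 called genes a list and comparison by smallest p; the other members are given by range and role. Promoter windows are RefSeq's.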

Additional observations from a re-analysis of the deposited data

How the results depend on the processing

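Of 17 called member tests, 4 held in all 18 alternatives (Ccnd2 with both inhibitors, and Mcm4 and Birc5 with OPH, each against DMSO), and the direction turned in 0 of them. All 17 held under RLE factors, with no filter, with the stricter filter and with the replicate block, 16 with DESeq2, 15 with limma-voom, 15 in the fits of 2 groups, 13 with library size alone, 12 with the libraries numbered 1 and 2, and 8 to 15 without 1 library. With the replicate block, the lower calls became 13 with OPH against DMSO and 10 with OPH against FMK; beside those given above, the block ended or turned no call. Library size alone gave 1 higher and 7 lower calls and medians of -0.12 (replication) and -0.068 (mitosis) with FMK against DMSO, and 0 lower calls and medians of 0.0099 (replication) and -0.18 (mitosis) with OPH against FMK. The 2 groups alone gave 2 lower calls with FMK against DMSO. Without a filter, 11 were lower with OPH against DMSO. The libraries numbered 1 and 2 gave 2 higher calls with OPH against DMSO and a replication median of -0.12 with FMK against DMSO. The cause of these shifts was not tested, beyond the shift of all genes with library size and the smaller number of libraries.

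Without 1 library, calls with FMK against DMSO ranged from 1 to 2 higher and 0 to 4 lower, the replication median from -0.12 (without FMK 3) to 0.0017 and the mitosis median from -0.025 to 0.15 (without DMSO 3). With OPH against DMSO, 1 to 2 were higher and 2 to 9 lower, with medians of -0.26 to -0.16 (replication) and -0.32 to -0.15 (mitosis), the smallest both without DMSO 3. With OPH against FMK 0 to 4 were lower, with medians of -0.17 to -0.03 (replication) and -0.37 to -0.20 (mitosis), the smallest both without FMK 3. At this depth, members such as Cdc6 had 24 to 58 counts a library, which leaves an interval of -0.55 to 0.86 with FMK against DMSO.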

Other observations

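Of 19 regulators of the RB, E2F and DREAM complexes, 1 rose and 1 fell with FMK against DMSO, 0 rose and 2 fell with OPH against DMSO (1 rose and 2 fell with the replicate block), and 0 rose and 1 fell with OPH against FMK. The shares called higher and lower were 5.26% and 5.26%, 0% and 10.5%, and 0% and 5.26% in that order, beside 10.4% and 10.1%, 8.61% and 8.11%, and 4.2% and 4.66% of all genes tested. E2f5, an E2F that acts with the pocket proteins, measured 19.93, 19.999 and 21.3 CPM in the FMK libraries and 12.8, 9.95 and 12.5 CPM in the OPH libraries, against 14.3, 11.9 and 11.9 CPM in the DMSO libraries. All FMK libraries lay above all others, with a log2 fold change of 0.68 ± 0.19 (SE) against DMSO (adjusted p = 0.0149, edgeR) and of -0.80 ± 0.19 for OPH against FMK (adjusted p = 0.0132). Rbl2, the pocket protein p130, measured 25.2, 28.1 and 24.1 CPM in the FMK libraries and 27.5, 34.3 and 33.5 CPM in the OPH libraries, against 36.1, 40.0 and 33.4 CPM in the DMSO libraries, and fell by 0.50 ± 0.14 with FMK against DMSO (adjusted p = 0.0179).

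The atypical repressors E2f7 and E2f8, themselves transcribed in S phase, both fell with OPH against DMSO. E2f7 measured 7.70, 5.97 and 8.23 CPM in the OPH libraries, against 12.9, 11.6 and 14.1 CPM in the DMSO libraries (-0.82 ± 0.24, adjusted p = 0.0270). E2f8 measured 4.71, 1.99 and 4.11 CPM in the OPH libraries, against 6.69, 7.26 and 9.30 CPM in the DMSO libraries (-1.10 ± 0.35, adjusted p = 0.0359). In neither gene did the OPH and DMSO libraries overlap. Beside the replicate block and the other tools, these genes were not run under other settings.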
